A study of Caenorhabditis elegans with 72 samples.

Results

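The synaptic vesicle machinery of all neurons was followed here through 9 genes, *rab-3*, *snb-1*, *snt-1*, *unc-64*, *ric-4*, *unc-13*, *unc-18*, *unc-10* and *unc-104*. They were chosen as genes that nearly every neuron uses, as a check on the neuronal share of the RNA. All 9 were found by their WormBase names among the 46624 WormBase identifiers of the deposited table. RNA of whole *C. elegans* was sequenced at the late L4 stage, the last larval stage before adulthood, in 4 genotypes that all carry a mutation in *npr-1*, a neuropeptide receptor gene. *npr-1* animals were the control. The other 3 genotypes carried a second mutation, in *malt-1* (a paracaspase gene), *ilc-17.1* (an IL-17 ligand gene) or *nfki-1* (the gene of an IκB-like protein), and each is called here by that second gene alone. The labels give the strain as AX204 for every genotype and name no allele of the 4 genes. Animals hatched from eggs that 10 gravid adults had laid within 2 h on a plate of *E. coli* OP50, 8 to 10 plates made a replicate, and each genotype has 18 labeled samples, 72 in all. The samples outnumber the biological replicates in the study's methods, which have 1 fewer for *ilc-17.1* mutants, and the samples of these mutants carry 15 library numbers, 3 of them a second time.

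The deposited values are FPKM, counts of sequenced fragments scaled for the length of the transcript and for the size of the library. The table gives 1 FPKM value per genotype in each of 6 pairs of genotypes, and no value per sample. The spread between replicates and the depth behind each value are therefore unknown. No difference below has a replicate check, an error or a test, and each is a description of these values. A log2 ratio is the log2 of the ratio of the FPKM values of 2 genotypes, taken where their mean was at least 1. A gene was counted as higher or lower where its log2 ratio was at least 0.25 in that direction, the fold named in the study's methods. Since the RNA came from whole animals, fewer neurons and less of a transcript per neuron cannot be told apart.

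Neurons release transmitter by fusing vesicles with the plasma membrane at active zones. Vesicle precursors travel along axons on a kinesin motor, and mature vesicles are docked, primed by factors at the active zone, and fused when calcium enters. Fusion is driven by SNARE proteins, of which synaptobrevin sits on the vesicle while syntaxin and SNAP-25 sit on the plasma membrane. Worm mutants in most of these genes are uncoordinated or resist inhibitors of cholinesterase, from which the names *unc* and *ric* come. In *C. elegans* these genes are read as panneuronal, and some are also used in other secretory cells.

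In the coordinates of the deposited table, *rab-3* (WBGene00004267) lies on chromosome II from 5720148 to 5727651, and 2 more genes of the table have the same locus. *snt-1* (WBGene00004921) lies on chromosome II from 6810963 to 6816443, and *unc-104* (WBGene00006831) on the same chromosome from 6994987 to 7010624, a locus of 5 genes in all. *snb-1* (WBGene00004897) lies on chromosome V from 6655562 to 6656501, and *ric-4* (WBGene00004364) on chromosome V from 10261131 to 10270314, a locus of 3 genes. *unc-64* (WBGene00006798) lies on chromosome III from 13277261 to 13283883, and *unc-13* (WBGene00006752) on chromosome I from 7422785 to 7454088. *unc-18* (WBGene00006757) lies on chromosome X from 7682896 to 7686040, and *unc-10* (WBGene00006750) on chromosome X from 7272334 to 7280322, again a locus of 3 genes. All 9 are protein-coding genes in the WBcel235 annotation, in which 6 of the 9 start at the base that the table gives. The build of the table is not given in the sources used here. Of the genes that overlap them in that annotation, those that reached an FPKM of 1 in *npr-1* were *damt-1*, which overlaps *rab-3* and had an FPKM of 7.57, and *set-25*, which overlaps *unc-64* and had an FPKM of 8.63. The library kit marks strand, but whether the authors' counting used it is not stated.

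The 9 genes were measured at very different levels. In *npr-1* animals, *snb-1*, which encodes the vesicle SNARE synaptobrevin, had the highest FPKM and *unc-10*, which encodes the active zone protein RIM, the lowest, an 80.9-fold range per length of transcript. In the values deposited with *malt-1* mutants, *snb-1* at 231.9 lay above 94.4% of the 13241 genes that reached an FPKM of 1, and *unc-10* at 2.87 above 14.6%. Between them came, in order, *unc-64* at 64.7, *ric-4* at 42.0, *unc-18* at 33.7, *rab-3* at 17.6, *snt-1* at 12.9, *unc-13* at 12.5 and *unc-104* at 6.75. All 9 had an FPKM of at least 1 in all 4 genotypes, so none was lost to the filter. The first, second, eighth and ninth places were held by the same genes in all 4 genotypes. The order in between moved most for *unc-13*, which encodes a priming factor and was in place 7 in *npr-1* animals, place 6 in *malt-1* and *nfki-1* mutants and place 5 in *ilc-17.1* mutants, above *rab-3* and *snt-1*. *unc-18* passed *ric-4* in *ilc-17.1* mutants only, with 37.6 against 35.1. Without values per sample, which neighbors in this order differ beyond replicate spread was not tested.

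**Figure D1:**
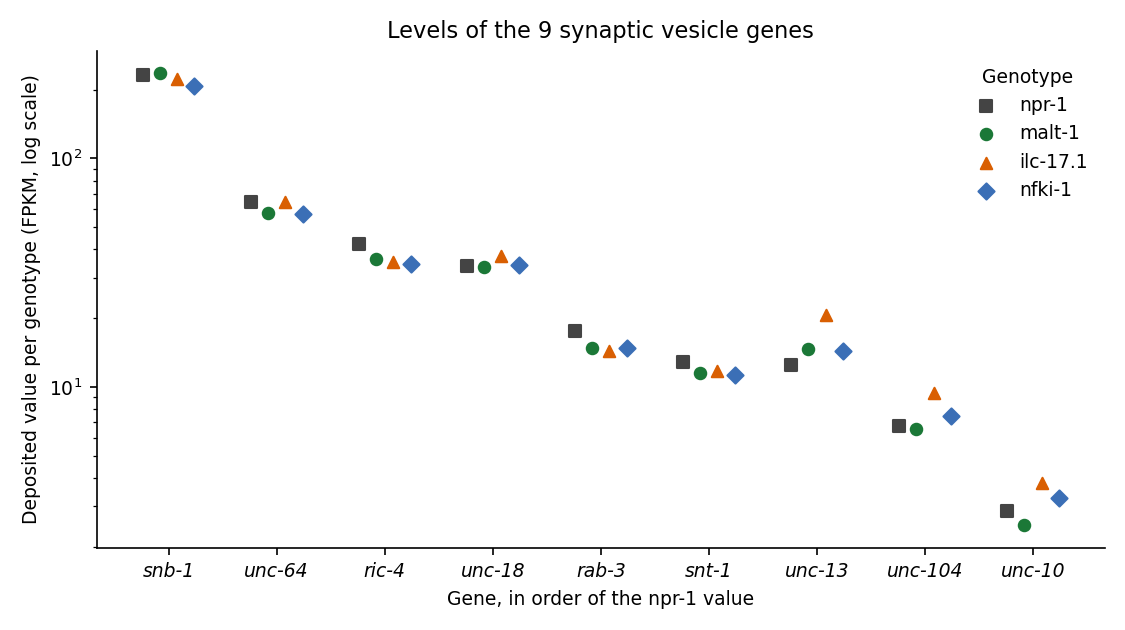
FPKM (y axis, log scale) of the 9 genes (x axis, in order of their *npr-1* value), with 1 point per genotype and no error, since the table gives 1 value each. Each mutant's value is from its comparison with *npr-1*, and the *npr-1* value from that with *malt-1*. The *ilc-17.1* points stand above the other genotypes for *unc-13*, *unc-104* and *unc-10*.

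Against *npr-1*, the 9 genes did not move as 1 block in any mutant. In *malt-1* mutants 7 were below and 2 above the *npr-1* value, with a median log2 ratio of -0.17 and a range from -0.25 to 0.22. None passed 0.25 in either direction, while over the 13098 genes compared 12.8% were lower and 20.7% higher by that much. In *ilc-17.1* mutants 5 were below and 4 above, with a median of -0.02 and a range from -0.31 to 0.70. There 2 of 9 were lower (*rab-3* and *ric-4*) and 3 of 9 higher (*unc-13*, *unc-10* and *unc-104*), against 20.4% lower and 26.5% higher of 13181 genes. In *nfki-1* mutants 5 were below and 4 above, with a median of -0.18 and a range from -0.29 to 0.19. There 2 of 9 were lower (*rab-3* and *ric-4*) and none higher, against 18.4% lower and 28.0% higher of 13127 genes. The median log2 ratio over all genes was 0.01, 0.03 and 0.02 in the same order. With 9 genes, a share rests on very few of them. The 3 comparisons share the *npr-1* value, and an unusual *npr-1* value would move a gene the same way in all of them.

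The vesicle proteins were at or below the *npr-1* level. *rab-3* encodes a small GTPase of the vesicle membrane. Its FPKM was between 17.6 and 17.8 in *npr-1* animals, 14.8 in *malt-1*, 14.4 in *ilc-17.1* and 14.8 in *nfki-1* mutants. All 3 mutant values were thus below *npr-1* and close to each other. The log2 ratios were -0.245, just short of the threshold, -0.31 and -0.26. When the ratios were centered on the median of all genes, the first of these came to lie past 0.25. In *ilc-17.1* and *nfki-1* mutants, 15.5% and 17.5% of all genes were at least as far below *npr-1* as *rab-3*.

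*snb-1* encodes synaptobrevin. It had an FPKM between 231.9 and 235.2 in *npr-1* animals, 235.6 in *malt-1*, 223.0 in *ilc-17.1* and 206.9 in *nfki-1* mutants, log2 ratios of 0.02, -0.08 and -0.18. *snt-1* encodes synaptotagmin, the calcium sensor of the vesicle, and had an FPKM between 12.9 and 13.1 in *npr-1* animals, 11.4 in *malt-1*, 11.7 in *ilc-17.1* and 11.3 in *nfki-1* mutants. Its log2 ratios of -0.17, -0.16 and -0.20 were nearly equal in the 3 mutants and short of 0.25 in each.

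Both plasma membrane SNAREs were below *npr-1* in each mutant, by amounts that differed. *unc-64* encodes syntaxin and had an FPKM between 64.7 and 65.6 in *npr-1* animals, 57.6 in *malt-1*, 64.5 in *ilc-17.1* and 56.9 in *nfki-1* mutants. The *ilc-17.1* value was thus next to that of *npr-1*, with a log2 ratio of -0.02, and the other 2 were lower, with log2 ratios of -0.17 and -0.20. *ric-4* encodes SNAP-25 and had an FPKM between 42.0 and 42.6 in *npr-1* animals, 36.4 in *malt-1*, 35.1 in *ilc-17.1* and 34.6 in *nfki-1* mutants, log2 ratios of -0.21, -0.28 and -0.29. Like *rab-3*, *ric-4* had 3 similar mutant values below the control, and the last 2 passed 0.25.

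The docking and priming genes held *unc-13*, the member furthest above *npr-1*. *unc-13* encodes the Munc13 protein that primes docked vesicles for fusion. Its FPKM was between 12.5 and 12.7 in *npr-1* animals, 14.6 in *malt-1*, 20.6 in *ilc-17.1* and 14.3 in *nfki-1* mutants. All mutants were above *npr-1*, and *ilc-17.1* mutants stood apart, 62.6% above *npr-1* with a log2 ratio of 0.70, against 0.22 and 0.19 in *malt-1* and *nfki-1* mutants. Of all genes, 6.71% were as far above *npr-1* in *ilc-17.1* mutants.

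*unc-10* encodes RIM, a scaffold of the active zone that binds Rab3 and Munc13. Its FPKM was between 2.87 and 2.91 in *npr-1* animals, 2.48 in *malt-1*, 3.81 in *ilc-17.1* and 3.26 in *nfki-1* mutants. It was below the control in *malt-1* mutants and above it in both others, with log2 ratios of -0.21, 0.39 and 0.18, and it was also the member at the lowest level. *unc-18* encodes the Munc18 protein, which binds syntaxin. It barely moved in *malt-1* and *nfki-1* mutants, with an FPKM between 33.7 and 34.2 in *npr-1* animals, 33.3 in *malt-1*, 37.6 in *ilc-17.1* and 34.2 in *nfki-1* mutants, log2 ratios of -0.02, 0.14 and 0.01.

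Axonal transport of vesicle precursors was represented by *unc-104*, which encodes the kinesin motor KIF1A. Its FPKM lay between 6.75 and 6.85 in *npr-1* animals, 6.57 in *malt-1*, 9.44 in *ilc-17.1* and 7.46 in *nfki-1* mutants. As for *unc-13*, the *ilc-17.1* value stood apart, 37.8% above *npr-1* with a log2 ratio of 0.46, against -0.04 and 0.13 in the other mutants.

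**Figure D2:**
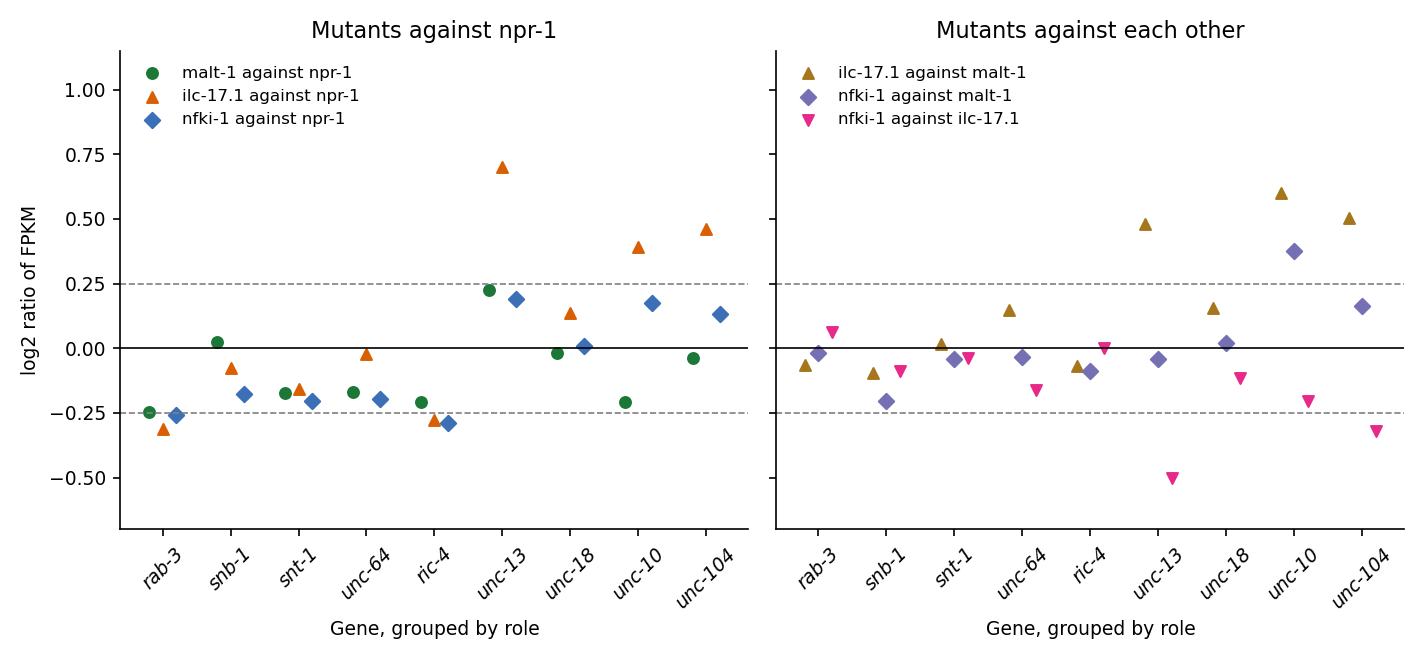
log2 ratio of FPKM (y axis) of the 9 genes (x axis, ordered vesicle proteins, plasma membrane SNAREs, docking and priming, transport), for each mutant against *npr-1* (left) and for the mutants against each other (right). Dashed lines mark -0.25 and 0.25, each point is 1 ratio without an error, and *unc-13*, *unc-10* and *unc-104* reach 0.70, 0.39 and 0.46 in *ilc-17.1* mutants while *rab-3* and *ric-4* are below 0 in all 3 mutants.

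The mutants were also compared with each other. In *ilc-17.1* against *malt-1* mutants, 3 of 9 genes were higher and none lower, against 21.4% higher and 18.9% lower of 13225 genes, and the median of the 9 was 0.15. The 3 were *unc-10*, with an FPKM of 3.82 against 2.52 and a log2 ratio of 0.60, *unc-104*, with 9.46 against 6.67 and 0.50, and *unc-13*, with 20.6 against 14.8 and 0.48. In *nfki-1* against *malt-1* mutants, 1 of 9 was higher and none lower, against 18.7% higher and 11.4% lower of 13146 genes, and the median was -0.03. That gene was *unc-10*, with 3.26 against 2.51 and a log2 ratio of 0.38. In *nfki-1* against *ilc-17.1* mutants, 2 of 9 were lower and none higher, against 14.6% lower and 19.7% higher of 13265 genes, and the median was -0.12. These were *unc-13*, with 14.6 against 20.7 and a log2 ratio of -0.50, and *unc-104*, with 7.60 against 9.48 and -0.32. *rab-3* and *ric-4*, the 2 genes lower than *npr-1* by at least 0.25 in *ilc-17.1* and *nfki-1* mutants, lay between -0.09 and 0.06 in all 3 comparisons among the mutants. These comparisons are not separate measurements. The value of a member in 1 genotype differed between the comparisons by a factor that was nearly the same for all genes, at most 1.02, so the ratios between mutants follow from those against *npr-1*.

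The 9 genes differed in the length of their transcripts, and the longest were the highest against *npr-1* in *ilc-17.1* mutants. The longest annotated transcript has 807 nt for *snb-1*, 1137 nt for *ric-4*, 1460 nt for *rab-3*, 1785 nt for *snt-1*, 2567 nt for *unc-64* and 2613 nt for *unc-18*. It has 4940 nt for *unc-10*, 5502 nt for *unc-104* and 6468 nt for *unc-13*, the 3 members higher in *ilc-17.1* mutants. In those mutants the median log2 ratio of these 3 was 0.46 and that of the other 6 was -0.12. The medians were 0.18 and -0.20 in *nfki-1* mutants and -0.04 and -0.17 in *malt-1* mutants. In *malt-1* mutants the longest member, *unc-13*, was also the highest at 0.22, but the other ratios did not follow length. *unc-10* was at -0.21, as was *ric-4*, and *unc-104* at -0.04 was below the shortest member, *snb-1*, at 0.02.

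Protein-coding genes as a whole also differed by length, most in *ilc-17.1* mutants. In *ilc-17.1* against *npr-1*, the median log2 ratio went from -0.11 for 1082 genes with transcripts of up to 500 nt to 0.33 for 409 genes of 4001 to 6000 nt and 0.50 for 167 genes above 6000 nt, of which 85.0% were higher by at least 0.25 and none lower. In *nfki-1* mutants the medians of the last 2 classes were 0.17 and 0.23, and in *malt-1* mutants 0.05 and 0.17, where the shortest class was at 0.09. After the median of its length class was subtracted, a step chosen after seeing the data, *unc-13* had a log2 ratio of 0.20 in *ilc-17.1* mutants, *unc-104* of 0.13 and *unc-10* of 0.06, and none of the 9 was higher by 0.25, against 20.0% of 11815 protein-coding genes. In its class, 19.2% of genes were as far above *npr-1* as *unc-13*, 31.3% as far as *unc-104* and 43.0% as far as *unc-10*. The genes lower than *npr-1* moved less, since *rab-3* came to -0.23, -0.26 and -0.21 (*malt-1*, then *ilc-17.1*, then *nfki-1* mutants) and *ric-4* to -0.19, -0.23 and -0.24. With the same step *unc-64* came to -0.25 in *nfki-1* mutants, past the threshold at -0.254, and *unc-10* to -0.26 in *malt-1* mutants. The median of the 9 became -0.13, 0.01 and -0.09. Their range became -0.26 to 0.05, -0.26 to 0.20 and -0.25 to 0.002. In *nfki-1* mutants only *unc-10* was then above 0, by 0.002, and all other members were below 0. The part of transcript length in these ratios was not tested.

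**Figure D3:**
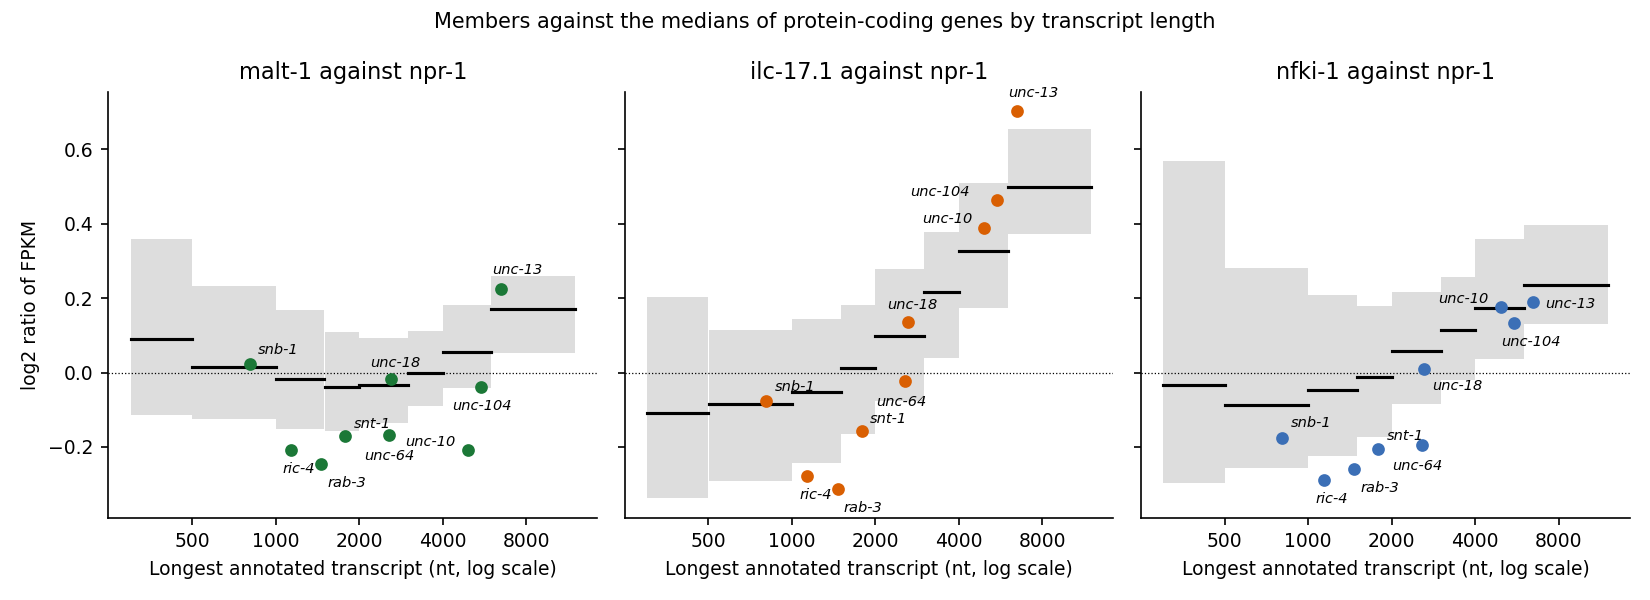
log2 ratio of FPKM against *npr-1* (y axis) by the longest annotated transcript (x axis, nt, log scale), with 1 panel per mutant. Black lines are medians and gray boxes the quartiles of protein-coding genes in 8 length classes (the first and last drawn in part), and colored points are the 9 genes, of which *unc-13*, *unc-10* and *unc-104* lie at the rising end in *ilc-17.1* mutants.

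Genes that work beside the 9 were taken from lists of the same machinery. Counts and ratios against *npr-1* are given in the order *malt-1*, then *ilc-17.1*, then *nfki-1* mutants, and FPKM values of *npr-1* are those deposited with *malt-1* mutants. In that order, 20.7%, 26.5% and 28.0% of all genes were higher and 12.8%, 20.4% and 18.4% lower, and after the length step 17.9%, 20.0% and 24.5% of protein-coding genes were higher and 11.1%, 18.7% and 15.6% lower. No list was tested against these shares, and in lists of 10 or fewer a share rests on few genes. Of 10 other vesicle and release proteins with a value, 0, 4 and 2 were higher and 0, 5 and 2 lower, with medians of -0.03, -0.16 and -0.08. The lowest were *cpx-1*, which encodes the SNARE-binding protein complexin (-0.19, -0.36 and -0.47), and *snt-3*, which encodes another synaptotagmin (-0.18, -0.39 and -0.26). The highest were *aex-3*, which encodes an exchange factor for RAB-3 (0.19, 0.50 and 0.34), and *tom-1*, which encodes tomosyn, an inhibitor of priming (0.16, 0.44 and 0.38). *cpx-1* and *snt-3* have transcripts of 804 and 1320 nt and *tom-1* and *aex-3* of 4187 and 4582 nt. *sph-1*, named after its value was seen, has a transcript of 817 nt and went against that order with 0.17, 0.33 and 0.11. With the length step, 0, 1 and 0 of the 10 were higher and 0, 5 and 1 lower.

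Of 10 active zone and calcium channel genes, 1, 7 and 4 were higher and 2, 0 and 0 lower, with medians of 0.12, 0.36 and 0.24 and a median transcript length of 3974 nt. These 1, 7 and 4 of 10 higher stand beside 20.7%, 26.5% and 28.0% of all genes. Of protein-coding genes with transcripts of 3001 to 4000 nt, 44.6% were higher in *ilc-17.1* mutants. *rimb-1* encodes the RIM-binding protein, a partner of UNC-10. Its FPKM was 2.85 in *npr-1* animals, 4.41 in *malt-1*, 5.61 in *ilc-17.1* and 5.82 in *nfki-1* mutants, all above the control, with log2 ratios of 0.63, 0.96 and 1.02. With the length step it remained at 0.58, 0.63 and 0.85, above the values of *unc-10* in each mutant. *unc-2*, which encodes the channel that lets in calcium at the active zone, came next by the mean over the 3 mutants, with 0.14, 0.54 and 0.52. The lowest were *sad-1*, which encodes a kinase of synapse assembly (-0.25, 0.00 and -0.05), and *ccb-1*, which encodes a calcium channel beta subunit (-0.08, -0.04 and -0.14). With the length step, 1, 1 and 2 of the 10 were higher and 2, 0 and 0 lower.

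Of 10 genes of vesicle endocytosis, 0, 5 and 0 were higher and none lower, with medians of 0.02, 0.18 and 0.09. The highest were *dyn-1*, which encodes dynamin (0.13, 0.39 and 0.22), and *unc-26*, which encodes synaptojanin (0.18, 0.29 and 0.23). The lowest were the adaptor subunit genes *dpy-23* (0.00, -0.04 and -0.15) and *aps-2* (0.14, -0.11 and -0.14). Cells other than neurons also use genes of this list, high and low ones alike, and the list was not divided by tissue. With the length step, 2 of the 10 were higher in *ilc-17.1* mutants and none in the others.

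Of 10 genes of axonal transport and arborization, 2, 4 and 2 were higher and 1, 0 and 0 lower, with medians of -0.01, 0.10 and 0.01. *unc-51*, which encodes the kinase ULK (0.33, 0.86 and 0.64), and *unc-33*, which encodes a CRMP protein (0.32, 0.77 and 0.71), were above *unc-104* in each mutant. Their transcripts, of 2897 and 3595 nt, are shorter than that of *unc-104*, and with the length step both stayed at 0.32 or more in each mutant. The lowest were *unc-44*, which encodes ankyrin (-0.27, -0.15 and -0.24), and *sam-4*, a gene needed for transport of vesicle precursors (-0.14, -0.06 and -0.04). *unc-44* has the longest transcript named here, 21716 nt, so length and ratio did not go together for it.

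A list of other panneuronal genes gave a second reading of the same label, with limits. *tbb-4*, 1 of its 2 lower genes in *ilc-17.1* and *nfki-1* mutants, is a gene of ciliated neurons rather than of all neurons. *ric-19* is also counted in the peptide list below. Use of the other genes of the list outside neurons was not examined. All 6 had an FPKM of at least 1, and 0, 2 and 0 were higher and 0, 2 and 2 lower, with medians of -0.02, 0.11 and -0.03. *tbb-4*, which encodes a beta tubulin of ciliated neurons, had an FPKM of 3.53 in *npr-1* animals, 3.62 in *malt-1*, 1.83 in *ilc-17.1* and 2.60 in *nfki-1* mutants, log2 ratios of 0.03, -0.97 and -0.45. *unc-119*, which encodes a lipid-binding chaperone needed in neurons, was at -0.05, -0.30 and -0.35. The highest were *maco-1*, which encodes a macoilin (-0.05, 0.33 and 0.10), and *rgef-1*, which encodes a Ras exchange factor (0.03, 0.27 and 0.07). Neither this list nor the 9 genes had a median past 0.25 in any mutant.

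Genes for peptides, which neurons release from another class of vesicle, had lower medians than the 9 members in each mutant. Of 9 genes of peptide processing and dense core release, 1, 1 and 0 were higher and 5, 6 and 5 lower, with medians of -0.27, -0.34 and -0.39. The lowest were *pgal-1* (-0.42, -0.67 and -0.65) and *pghm-1* (-0.41, -0.68 and -0.63), whose enzymes amidate peptides. The highest were *unc-31*, which encodes CAPS, a priming factor of dense core vesicles (0.27, 0.33 and 0.22), and *ric-19* (-0.06, 0.17 and 0.04). Of 30 *flp* genes, which encode FMRFamide-like peptides, 0, 1 and 0 were higher and 15, 28 and 28 lower, with medians of -0.25, -0.56 and -0.46, where 12.8%, 20.4% and 18.4% of all genes were lower. Of *nlp* genes, which encode other peptides, 51, 52 and 52 had a value, and 2, 3 and 2 were higher and 26, 35 and 35 lower, with medians of -0.25, -0.45 and -0.41. The *flp* and *nlp* genes have short transcripts, with medians of 637 and 533 nt, and with the length step their medians were -0.26, -0.48 and -0.40 for *flp* and -0.28, -0.35 and -0.33 for *nlp* genes. The *flp* and *nlp* genes were taken by the prefix of their names, were not divided by tissue, and may include peptides of cells other than neurons. The difference between the peptide genes and the 9 members was not tested.

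**Figure D4:**
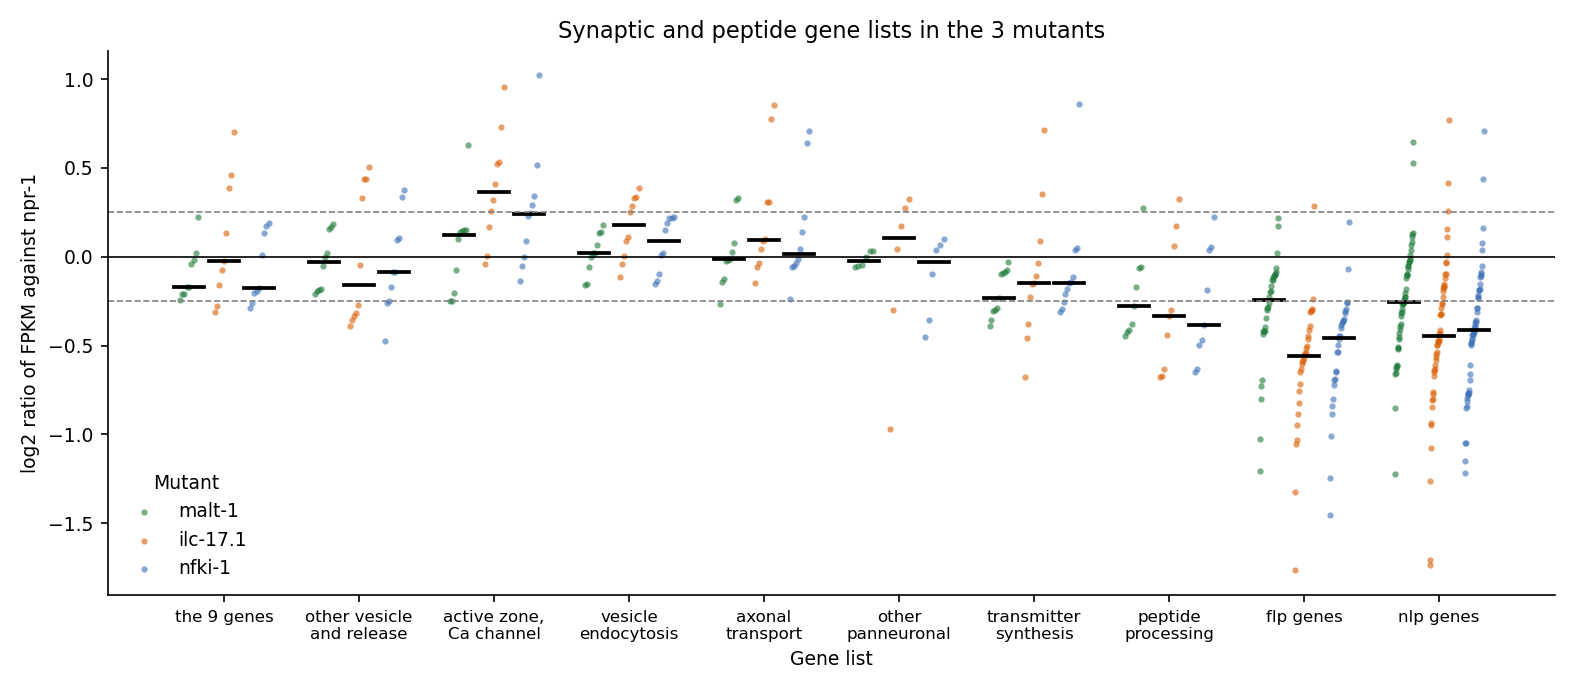
log2 ratio of FPKM against *npr-1* (y axis) for the 9 genes and 9 other gene lists (x axis), with 1 point per gene, 3 colors for the mutants, black bars for medians and dashed lines at -0.25 and 0.25. The 9 genes spread on both sides of 0, while the *flp* medians are -0.25, -0.56 and -0.46.

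Markers of other tissues were not level between the genotypes. Body wall muscle markers had medians of -0.02, 0.41 and 0.01 in the order above, with a median transcript of 3424 nt, and after the length step -0.12, -0.04 and 0.00. Intestine markers, of which 5 of 7 had a value, had medians of -0.05, -0.05 and -0.11. Germline markers had medians of -0.29, -0.37 and -0.09, with 4, 4 and 2 of 6 lower and none higher. Of all genes, 12.8%, 20.4% and 18.4% were lower. The lowest germline markers were *pgl-1* (-0.35, -0.75 and -0.45) and *glh-1* (-0.31, -0.73 and -0.44). The highest were *rme-2* (-0.27, 0.20 and 0.16) and *glp-1* (-0.12, 0.10 and 0.02). The 4 sperm markers had medians of 0.36, 0.17 and 0.62, all above *npr-1* in each mutant, with 3, 1 and 4 of them higher by at least 0.25. Among all genes 20.7%, 26.5% and 28.0% were higher, so 1 of 4 in *ilc-17.1* mutants is near the share. The 2 hypodermis markers with a value had medians of 0.06, 0.27 and 0.28, and the 1 glia marker with a value, *fig-1*, was at 0.08, 0.02 and -0.09. The part of these shifts in the ratios of the 9 genes was not tested. Of the mutated genes, *malt-1* had an FPKM of 6.49 in *npr-1* animals and 3.99 in *malt-1* mutants, *nfki-1* had 23.9 in *npr-1* animals and 8.94 in *nfki-1* mutants, and *ilc-17.1* was below 1 in all genotypes, at 0.310 in *npr-1* animals and 0.157 in *ilc-17.1* mutants. The table lists 3264 of 19701 protein-coding genes at 0 in every genotype. All 4 pharyngeal muscle markers are among them, so a value of 0 is not read here as absence. The study's methods leave out genes that oscillate in expression during development, and whether the genes at 0 are these was not tested. Genes at 0 enter none of the ratios, medians or shares above.

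The genes whose 3 ratios against *npr-1* lay nearest to the medians of the 9 members were sought over 12769 other genes, by Euclidean distance over the 3 log2 ratios. The nearest were *grp-1* (-0.17, -0.03 and -0.18, at a distance of 0.01), *nfya-2* at 0.02, *Y87G2A.2* at 0.02, WBGene00019441 at 0.02 and *orc-2* at 0.03. Within a distance of 0.1 lay 185 genes, and *unc-13* lay above and *rab-3* below these medians in each mutant.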

How the data were processed

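RNA-seq of whole late L4 animals of 4 genotypes was analysed. Libraries were made from polyA-selected RNA with a stranded kit and read as 50-bp single ends. Per the submitters' processing notes the tools were Trim Galore 0.4.3, TopHat2 2.1.0, Cufflinks 2.2.1 and Cuffdiff. The authors deposited 1 table with an FPKM value per genotype for each of 7 comparisons, 1 of them a copy with the order reversed. Its fold changes, test statistics, p-values and q-values are the authors' own comparisons and were not used. It has 0 columns of values per sample, so depth is unknown and no test, SD or interval was computed.

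log2 ratios of the authors' FPKM values were computed without a pseudocount for genes whose mean FPKM in the pair was at least 1, and counted past 0.25. Names matched 43276 of 46624 identifiers. Transcript lengths came from the Ensembl release 115 annotation of WBcel235, and 8 length classes of protein-coding genes gave the medians subtracted in the length step. *rab-27* and *ceh-44* were not found under these names. All 9 members were named, with the 5 genes nearest to the members' medians. From other lists, the 2 lowest and 2 highest genes by mean log2 ratio over the 3 mutants were named. No gene of the *flp*, *nlp*, muscle, intestine, hypodermis or sperm lists was named. Members and lists were chosen with earlier results of these data known. The counting was tested on simulated data. Python 3, pandas and matplotlib were used. Alternatives were a pseudocount of 1, centering on the median of all genes, ratios through another genotype, the mean, a threshold of 0.5, and an FPKM minimum of 5 or none.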

Additional observations from a re-analysis of the deposited data

Results flagged for a closer look

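*unc-10*, which encodes the active zone protein RIM, was below *npr-1* in *malt-1* mutants and above it in *ilc-17.1* mutants, and the ratio between these mutants, *ilc-17.1* against *malt-1*, was 0.60 on the log2 scale. It was also above *npr-1* in *nfki-1* mutants, and its log2 ratio in *nfki-1* against *malt-1* mutants was 0.38. *unc-104*, which encodes the kinesin of vesicle precursors, was at -0.04 against *npr-1* in *malt-1* mutants and at 0.46 in *ilc-17.1* mutants, and the log2 ratio between them was 0.50. These 3 were picked out because 2 mutants lay on opposite sides of the control and differed from each other by at least 0.25. The differences were not tested, since there is 1 value per genotype. With the length step they were 0.34, 0.26 and 0.24 in the same order.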

How the results depend on the processing

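No paired analysis was possible because the table gives no values per sample, so the replicate numbers that the genotypes share could not be used, and for the same reason no replicate was left out. With a threshold of 0.5, against *npr-1*, 0 members were lower and 1 higher in *ilc-17.1* mutants and 0 lower in *nfki-1* mutants, while in *ilc-17.1* against *malt-1* mutants 2 were higher, in *nfki-1* against *malt-1* mutants 0 were higher and in *nfki-1* against *ilc-17.1* mutants 1 was lower. A pseudocount of 1 left 1 member lower in *nfki-1* mutants, centering made 1 lower in *malt-1* mutants, and an FPKM minimum of 5 left 0 higher in *nfki-1* against *malt-1* mutants and 2 rather than 3 in *ilc-17.1* mutants against *npr-1* and against *malt-1*, since *unc-10* is below it. The mean of the 9 genes was 0.093 in *ilc-17.1* mutants, where the median was -0.02, and -0.069 in *nfki-1* mutants. After the length step, chosen after seeing the data, 1 member was lower in each mutant against *npr-1* and 0 higher in *ilc-17.1* mutants. Of protein-coding genes, 11.1%, 18.7% and 15.6% were lower (*malt-1*, then *ilc-17.1*, then *nfki-1* mutants), and 20.0% were higher in *ilc-17.1* mutants. Between mutants, 1 member was higher and the median was 0.031 in *ilc-17.1* against *malt-1*, where 15.9% of protein-coding genes were higher. In *nfki-1* against *ilc-17.1*, 1 member was lower, as were 12.3% of protein-coding genes. Medians moved by less than 0.1 with a pseudocount, with centering and through other genotypes. Of 54 ratios of single members, 18 moved by 0.1 or more with the length step, 1 with a pseudocount and 0 with centering. Depth is unknown and limits what can be said of *unc-10*, the member at the lowest level.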

Other observations

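Genes that make or load the transmitters carried by these vesicles, 11 of 13 with a value, had median log2 ratios against *npr-1* of -0.23, -0.15 and -0.15 (*malt-1*, then *ilc-17.1*, then *nfki-1* mutants). In the same order, 0, 2 and 1 were higher and 5, 3 and 3 lower by at least 0.25. Of all genes, 20.7%, 26.5% and 28.0% were higher and 12.8%, 20.4% and 18.4% lower. The counts were not tested against these shares, and 3 of 11 lower is near them. The lowest were *cat-1*, which encodes the vesicular monoamine transporter (-0.30, -0.68 and -0.31), and *eat-4*, which encodes the vesicular glutamate transporter (-0.39, -0.38 and -0.29). *tbh-1*, which encodes the enzyme that makes octopamine, had an FPKM of 8.83 in *npr-1* animals, 7.15 in *malt-1*, 14.7 in *ilc-17.1* and 16.2 in *nfki-1* mutants, log2 ratios of -0.30, 0.71 and 0.86. *unc-46*, needed to bring the GABA transporter to vesicles, was at -0.29, 0.35 and 0.04. Its FPKM was between 1.28 and 2.02, near the minimum of 1.

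CUT homeobox genes, some of which are known in *C. elegans* to act on panneuronal genes, had a value for 5 of 7. The highest were *ceh-48* (0.22, 0.32 and 0.39) and *ceh-38* (0.01, 0.39 and 0.24), and the lowest *ceh-41* (-0.25, -0.20 and -0.48) and *ceh-21* (-0.27, 0.16 and -0.40). Their medians were -0.25, 0.18 and 0.07, with 0, 2 and 1 higher and 3, 0 and 2 lower. Among all genes, 20.7%, 26.5% and 28.0% were higher and 12.8%, 20.4% and 18.4% lower in the same order. These counts of 5 genes were not tested against those shares, and each rests on very few genes. In *npr-1* animals *ceh-21* had an FPKM of 1.47 and *ceh-39* of 1.86, near the minimum of 1, so their ratios are the least certain.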
